A study of Saccharomyces cerevisiae with 21 samples.

Results

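Biotin is a cofactor that is joined covalently to a small set of enzymes that move carboxyl groups. Laboratory strains of budding yeast, Saccharomyces cerevisiae, take up biotin or its late precursors from the medium and can carry out the last steps of its synthesis. Vht1 carries biotin and Bio5 carries precursors across the plasma membrane, Bio3, Bio4 and Bio2 catalyse the last 3 steps in that order, and Bpl1 joins the finished biotin to its target proteins. The 6 genes described here are BIO2, BIO3, BIO4, BIO5, VHT1 and BPL1, matched by symbol, of 5823 genes in the deposited table of full-gene read counts. They were chosen by their expression in these same libraries, together with the position of BPL1 beside RPO21, so their differences between strains are given as descriptions without tests. All 6 passed the filter on low counts, as did 5618 genes in all.

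The study measured total RNA, depleted of ribosomal RNA, from 3 libraries of each of 7 strains grown in rich medium at 30 °C to logarithmic phase. The 6 mutant strains were spt6-R, spt6-KK, spt6-R,KK, rpb1-TPY, rpb1-FSP and rpb1-TPY,FSP, and the reference strain was WT. SPT6 encodes a histone chaperone that travels with elongating RNA polymerase II, and RPO21 encodes Rpb1, the largest subunit of that polymerase. Names with a comma denote strains that carry both changes of a pair. The labels do not spell out the altered residues, and each group came from a single strain identifier, so a difference between groups is a difference between single isolates. The labels do not say that libraries of a group came from separate cultures, and their spread may be technical in part.

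Full-gene totals ran from 4860861 to 7803152 counts per library. The a-cell receptor gene STE2 lay between 427 and 1282 CPM in the 21 libraries, where CPM is the count of a gene per 1000000 counts of its library after scaling, and the alpha-cell receptor gene STE3 between 0.785 and 8.01 CPM. The summed level of the 2 alpha-cell markers in the table was 9.37 to 12.5 CPM in spt6-R, 5.57 to 8.20 CPM in spt6-KK, 6.90 to 9.94 CPM in spt6-R,KK, 1.49 to 3.11 CPM in rpb1-TPY, 3.13 to 4.73 CPM in rpb1-FSP, 7.76 to 10.7 CPM in rpb1-TPY,FSP and 1.59 to 3.31 CPM in WT. The summed level of the 5 a-cell markers was 2370.3 to 2621 CPM in spt6-R, 1995 to 2495 CPM in spt6-KK, 2093 to 2978 CPM in spt6-R,KK, 1316 to 1870.04 CPM in rpb1-TPY, 2045 to 2333 CPM in rpb1-FSP, 2097 to 2830.3 CPM in rpb1-TPY,FSP and 1594 to 1785 CPM in WT. The alpha-cell sum stood above WT without overlap in spt6-R, spt6-KK, spt6-R,KK and rpb1-TPY,FSP. The a-cell sum did so in these 4 and in rpb1-FSP, which are the 5 mutants with high BIO2, and overlapped WT in rpb1-TPY. The part of either list in the results below was not tested. TRP1 had 3 to 12 counts in rpb1-TPY,FSP and WT, against 91 to 191 in the other 5 strains, so strains also differed at a locus outside SPT6 and RPO21.

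The upstream regions of VHT1 and BIO5 share a sequence pattern that none of the other 4 genes has within 500 bases of the start codon. The pattern is the vitamin H response element, bound by the regulator Vhr1, written here as AATCANNNNNNNNTGANT and searched on both strands. It occurs in 40 of 6000 upstream windows of that length in the R64 genome (0.667%). The 2 matches are shown because they separate the uptake genes from the enzymes. They are read on the strand of the gene, with the fixed letters of the pattern in capitals.
VHT1: attatgAATCActttaggaTGAtTtacaca
BIO5: actctgAATCAtacattgcTGAcTtggaat
The VHT1 match lies in intergenic sequence, beginning 265 bases before the start codon, and the printed stretch is chrVII:620100-620129 on the minus strand. The BIO5 match begins 283 bases before the start codon, and its printed stretch, chrXIV:733563-733592 on the minus strand, lies inside the coding sequence of BIO4. The shorter pattern TGACTC, bound by the amino acid regulator Gcn4, occurs once each before BIO2, BIO5 and VHT1 and in 2 copies before BIO3, against 12.7% of all windows with a copy. The copies before BIO3 and BIO5 also fall inside BIO4. The pattern TGCACCC, bound by the iron regulator Aft1, was found before none of the 6 genes and in 2.33% of all windows.

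**Figure D1:**
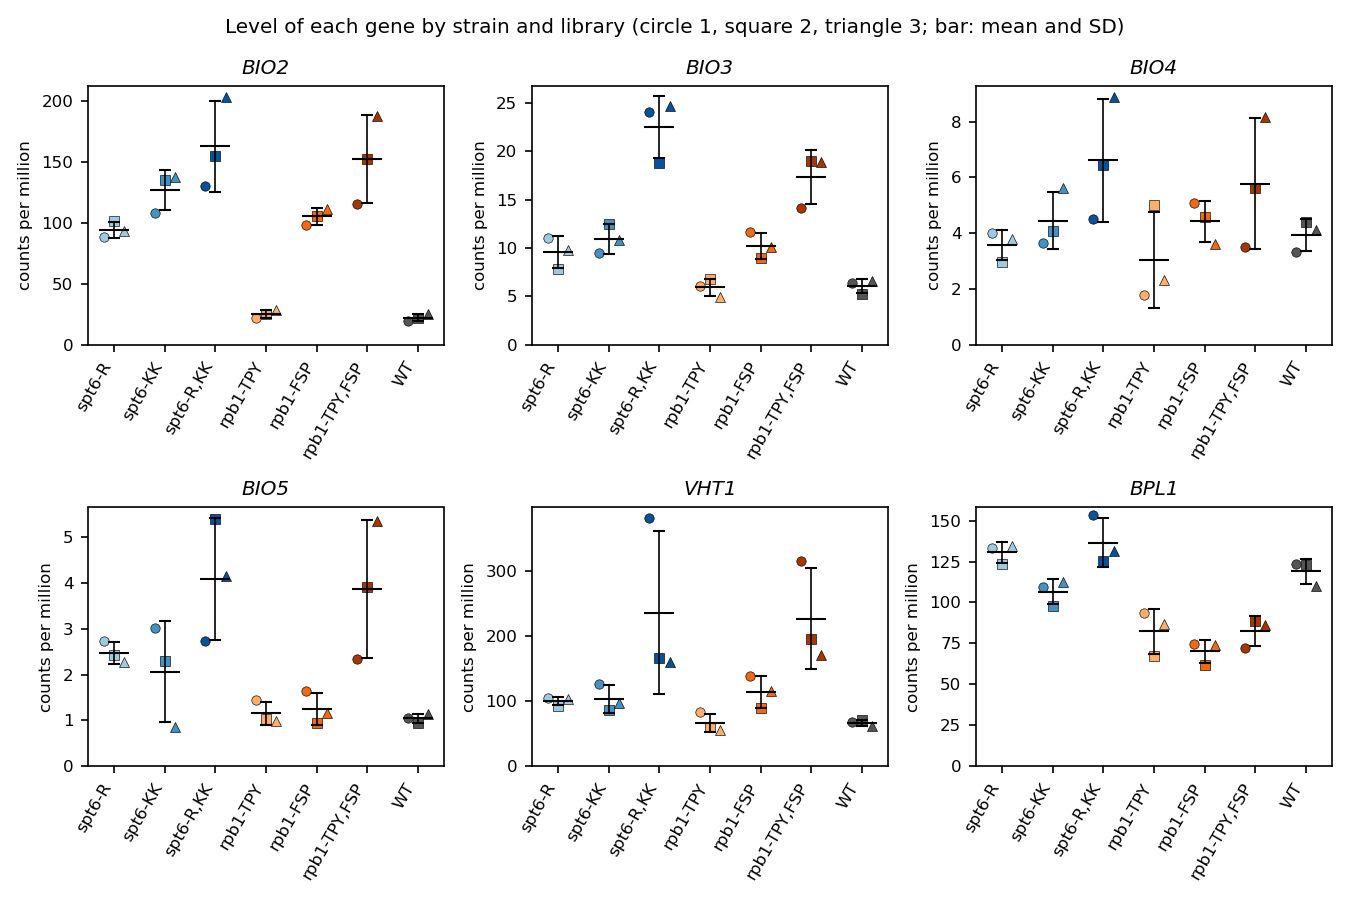
Level of each of the 6 genes in CPM (vertical axis, from 0) by strain, mutants on the left and WT on the right. Points are single libraries and bars give the mean and SD of 3. BIO2 stood between 94.2 and 163 CPM on average in 5 mutant strains, against 25.05 CPM in rpb1-TPY and 22.2 CPM in WT.

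BIO2 (YGR286C, chromosome VII, 1063813 to 1064940, minus strand, R64) encodes biotin synthase, the mitochondrial iron-sulfur enzyme of the last step, and the ratio between its highest and lowest strain means was the widest of the 6. Its levels were 88.3, 101 and 92.9 CPM in spt6-R, 108, 135 and 138 CPM in spt6-KK, and 130, 155 and 203 CPM in spt6-R,KK, against 19.1, 21.98 and 25.5 CPM in WT. They were 98.0, 106 and 112 CPM in rpb1-FSP and 116, 152 and 188 CPM in rpb1-TPY,FSP. The rpb1-TPY libraries had 21.5, 25.2 and 28.4 CPM. All 15 libraries of the 5 other mutants lay above all 6 libraries of rpb1-TPY and WT. In RNA from whole cultures, more cells that express a gene and more RNA per cell cannot be told apart.

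The ratio of mean BIO2 levels, mutant over WT, was 4.24 for spt6-R, 5.72 for spt6-KK, 7.34 for spt6-R,KK, 4.74 for rpb1-FSP, 6.85 for rpb1-TPY,FSP and 1.13 for rpb1-TPY. On the log2 scale the fitted differences from WT were 2.09 ± 0.18 (SE), 2.52 ± 0.18 and 2.88 ± 0.18 for spt6-R, spt6-KK and spt6-R,KK. The spt6-R,KK difference minus the sum of those of spt6-R and spt6-KK was -1.73 ± 0.25, so it was smaller than that sum. In rpb1-TPY,FSP the difference exceeded the sum of its single strains by 0.35 ± 0.26, which is close to its SE. In order of mean level the strains ran spt6-R,KK, rpb1-TPY,FSP, spt6-KK, rpb1-FSP, spt6-R, rpb1-TPY and WT. The libraries of each neighbouring pair in that order overlapped, except for the gap between spt6-R and rpb1-TPY.

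BIO3 (YNR058W, chromosome XIV, 734291 to 735733, plus strand) encodes the aminotransferase that makes diaminopelargonic acid with S-adenosylmethionine as the amino donor. Both double mutants were above all other strains. BIO3 stood at 24.1, 18.8 and 24.6 CPM in spt6-R,KK and at 14.1, 18.9 and 18.9 CPM in rpb1-TPY,FSP, against 6.32, 5.18 and 6.61 CPM in WT. Of the single mutants 3 lay between, with 11.1, 7.82 and 9.82 CPM in spt6-R, 9.46, 12.5 and 10.8 CPM in spt6-KK and 11.6, 8.97 and 10.1 CPM in rpb1-FSP. These 3 strains did not overlap WT, nor the double mutants.

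The log2 differences of BIO3 from WT were 1.90 ± 0.20 in spt6-R,KK and 1.52 ± 0.20 in rpb1-TPY,FSP, and between 0.68 and 0.86 in spt6-R, spt6-KK and rpb1-FSP. In rpb1-TPY, with 6.10, 6.73 and 4.96 CPM, the difference was -0.02 ± 0.22. The rpb1 double mutant exceeded the sum of its single strains by 0.78 ± 0.28, and the spt6 double mutant by 0.37 ± 0.27. The step between single and double mutants was thus wider for BIO3, at 1.90 against 0.86 in the spt6 series, than for BIO2, at 2.88 against 2.52.

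BIO4 (YNR057C, chromosome XIV, 733356 to 734069, minus strand) encodes dethiobiotin synthetase, the enzyme between Bio3 and Bio2. It lies 221 bases from BIO3 and is transcribed away from it, and 52 bases separate it from BIO5 on its other side. BIO4 stood at 4.49, 6.44 and 8.90 CPM in spt6-R,KK, at 3.50, 5.64 and 8.18 CPM in rpb1-TPY,FSP, and at 3.31, 4.40 and 4.10 CPM in WT. The lowest spt6-R,KK library was thus only just above the highest WT library, and rpb1-TPY,FSP overlapped WT. With 11 to 60 counts in a library, the log2 differences were 0.76 ± 0.36 and 0.54 ± 0.36 in spt6-R,KK and rpb1-TPY,FSP. In the 4 single mutants they ran from -0.38 ± 0.39 in rpb1-TPY to 0.18 ± 0.36 in spt6-KK, with all 4 strains overlapping WT. BIO4 therefore showed a smaller difference than BIO3 in the double mutants although their start codons share 1 intergenic region.

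BIO5 (YNR056C, chromosome XIV, 731618 to 733303, minus strand) encodes a plasma membrane transporter of biotin precursors and was counted at the lowest depth, with 5 to 38 counts in a library. The double mutants had 2.73, 5.40 and 4.15 CPM in spt6-R,KK and 2.33, 3.91 and 5.36 CPM in rpb1-TPY,FSP, against 1.05, 0.942 and 1.14 CPM in WT. Neither double mutant overlapped WT, and the log2 differences were 1.96 ± 0.46 and 1.86 ± 0.46. The spt6-R libraries, at 2.73, 2.42 and 2.27 CPM, also stood above WT, with a log2 difference of 1.24 ± 0.48. The spt6-KK libraries spread over 3.03, 2.31 and 0.864 CPM and overlapped WT. In rpb1-TPY and rpb1-FSP the differences of 0.16 ± 0.53 and 0.25 ± 0.53 were smaller than their SE. In the authors' deposited table the BIO5 log2 fold changes were smaller, at 1.163 for spt6-R,KK and 1.09 for rpb1-TPY,FSP.

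VHT1 (YGR065C, chromosome VII, 618077 to 619858, minus strand) encodes the proton-coupled biotin importer of the plasma membrane. It stood at 381, 166 and 161 CPM in spt6-R,KK and at 314, 195 and 171 CPM in rpb1-TPY,FSP, against 68.3, 70.5 and 61.5 CPM in WT. Each double mutant thus held 1 library, that numbered 1, far above the other two. The ratio of mean levels over WT was 3.53 for spt6-R,KK and 3.39 for rpb1-TPY,FSP, and 2.44 and 2.74 without those 2 libraries. The log2 differences were 1.82 ± 0.28 and 1.76 ± 0.28, and 1.29 and 1.46 without them.

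The same libraries were also the highest of their strain in the iron regulon described below, whose 13 genes summed to 3743, 2261 and 1713 CPM in spt6-R,KK and to 3536, 2752 and 2321 CPM in rpb1-TPY,FSP, against 1905 to 2366 CPM in WT. FET3 and FTR1, which were not called in either strain, made up most of these sums on average. The part of whatever sets these libraries apart in the VHT1 levels was not tested. VHT1 was highest in library 1 in 6 of 7 strains, and BIO2 was lowest in library 1 in 7 of 7, so the libraries of higher VHT1 were not those of higher BIO2.

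All single mutants had lower VHT1 levels than the double mutants. They were 104, 92.2 and 103 CPM in spt6-R, 127, 86.5 and 96.2 CPM in spt6-KK and 138, 88.9 and 115 CPM in rpb1-FSP. All of these lay above the 3 WT libraries, with log2 differences of 0.58 ± 0.28, 0.63 ± 0.28 and 0.77 ± 0.28. In rpb1-TPY, with 82.3, 60.2 and 55.9 CPM, VHT1 overlapped WT. The rpb1 double mutant exceeded the sum of its single strains by 1.01 ± 0.39, and the spt6 double mutant by 0.61 ± 0.39.

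**Figure D2:**
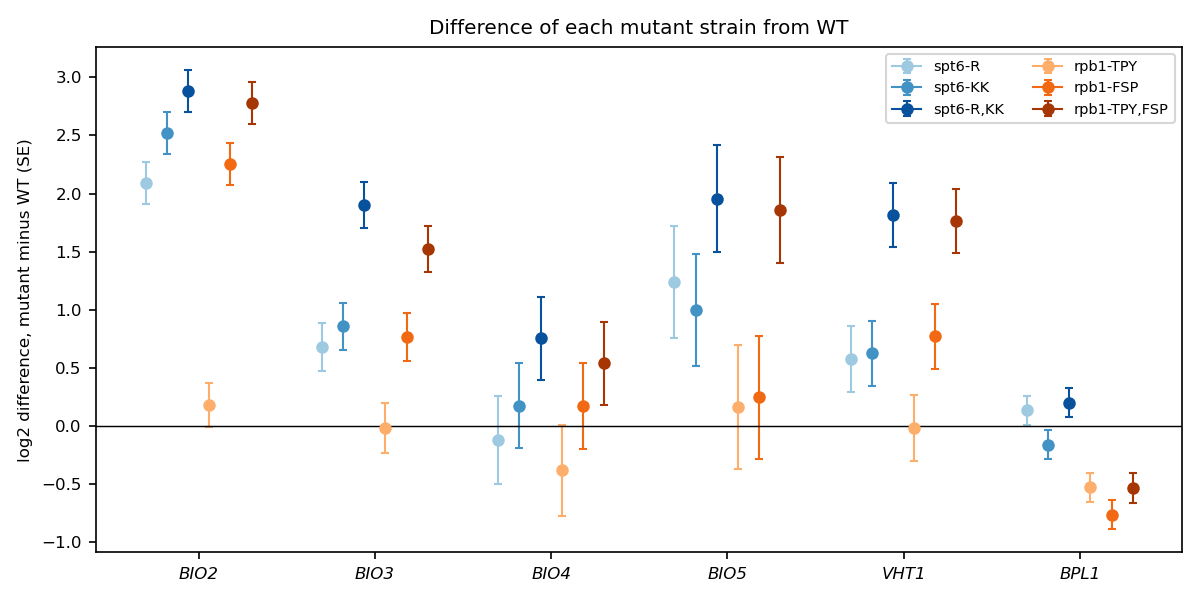
Fitted log2 difference of each mutant strain from WT (vertical axis) for the 6 genes. Error bars give 1 SE of that difference from 1 model of all 21 libraries, 3 a strain. BIO2, BIO3 and VHT1 lie above 0 in 5 of 6 mutant strains with rpb1-TPY near 0, and BPL1 lies below 0 in the 3 rpb1 strains, between -0.76 and -0.53.

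BPL1 (YDL141W, chromosome IV, 203039 to 205111, plus strand) encodes biotin-protein ligase, which is essential and attaches biotin to the yeast proteins that carry it. It was lower in the 3 rpb1 strains and followed none of the patterns of the other 5 genes. BPL1 stood at 93.4, 67.1 and 86.8 CPM in rpb1-TPY, at 74.3, 62.0 and 74.2 CPM in rpb1-FSP and at 71.9, 88.6 and 86.5 CPM in rpb1-TPY,FSP, against 124, 123 and 110 CPM in WT. The 9 rpb1 libraries spanned 62.0 to 93.4 CPM and the 12 libraries of the spt6 strains and WT spanned 97.8 to 153 CPM, without overlap. The log2 differences from WT were -0.53 ± 0.13 in rpb1-TPY, -0.76 ± 0.13 in rpb1-FSP and -0.53 ± 0.13 in rpb1-TPY,FSP. The double mutant was thus at the level of rpb1-TPY, and lay 0.76 ± 0.18 above the sum of the 2 single differences.

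In the spt6 strains BPL1 stood near WT. It had 134, 123 and 135 CPM in spt6-R, 109, 97.8 and 112 CPM in spt6-KK and 153, 125 and 131 CPM in spt6-R,KK, with log2 differences of 0.13 ± 0.13, -0.16 ± 0.13 and 0.20 ± 0.13. The spt6-R,KK libraries cleared those of WT by a narrow margin, and spt6-R and spt6-KK overlapped WT.

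BPL1 and RPO21 (205360 to 210561, minus strand), the gene edited in the rpb1 strains, are transcribed toward each other, with 248 bases between their coding sequences. Reads from overlapping transcripts could enter a full-gene count, so the authors' counts of sense reads over the middle 70% of each gene were compared. In these counts the BPL1 differences were -0.50 in rpb1-TPY, -0.67 in rpb1-FSP and -0.49 in rpb1-TPY,FSP, close to the full-gene values. Full-gene counts beyond those of the middle of BPL1 made up 7.11% to 14% in rpb1-FSP and 12.1% to 17.3% in WT, with overlap. The authors' deposited table gave log2 fold changes of -0.51, -0.72 and -0.53 on full-gene counts. The rpb1 strains with high TRP1, rpb1-TPY and rpb1-FSP, and that with low TRP1, rpb1-TPY,FSP, all had low BPL1. Whether overlapping reads or the TRP1 locus had a part in the BPL1 levels was not tested. How RPO21 was edited in the rpb1 strains, and what was placed beside it, is not given in the sources used here. The altered Rpb1 and any other change made beside BPL1 come together in these strains and cannot be told apart.

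No gene around BPL1 was called in all 3 rpb1 strains. Of the 3 counted genes nearest on each side (CRD1, CCT4, YDL144C, RPO21, SCM3 and RGT2), none was called in rpb1-TPY by edgeR's quasi-likelihood test or by DESeq2, and 0 had an unadjusted p under 0.05. The background there was 0.0534%, or 3 of 5618 genes called at an adjusted p under 0.05. RPO21 itself had a mean of 476 ± 108 CPM in rpb1-TPY, 534 ± 42.2 CPM in rpb1-FSP and 506 ± 18.1 CPM in rpb1-TPY,FSP, against 537 ± 9.56 CPM in WT (SD, n = 3 each), and it was called in no strain. In rpb1-FSP, CRD1, the cardiolipin synthase gene on the other side of BPL1, rose by 0.46 ± 0.12 on the log2 scale (adjusted p = 0.0433, edgeR quasi-likelihood test), against 2.35% of all genes called there. That call was lost without any 1 of the 6 libraries compared, with adjusted p between 0.0814 and 0.161, and under DESeq2 (adjusted p = 0.0829). In rpb1-TPY,FSP, with 35.2% of all genes called, 4 of the 6 neighbours were called. YDL144C and RGT2 rose by 0.53 and 0.45, calls that held in 12 and 10 of 13 alternative settings. CRD1 rose by 0.66 ± 0.12 (adjusted p = 0.00019, edgeR) and CCT4, a chaperonin subunit gene, fell by 0.38 (adjusted p = 0.0058, edgeR). In spt6-R,KK, with 36.7% called, CRD1 rose by 0.71 and CCT4 fell by 0.37 (adjusted p = 0.000101 and 0.00566, edgeR). These neighbours thus differed from WT in both double mutants, while BPL1 was below WT in rpb1-TPY,FSP and near it in spt6-R,KK.

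**Figure D3:**
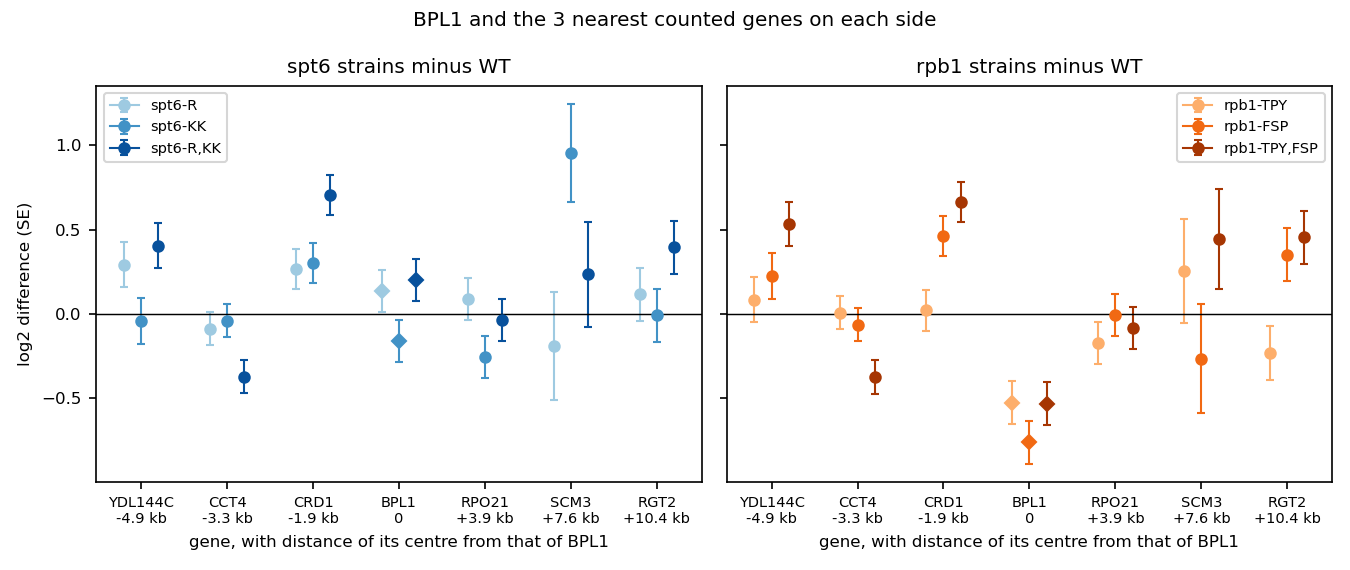
Log2 difference from WT (vertical axis, error bars 1 SE) of BPL1, drawn as diamonds, and of the 3 nearest counted genes on each side, drawn as circles, for the spt6 strains (left) and the rpb1 strains (right). In the rpb1 strains BPL1 lies between -0.76 and -0.53, while RPO21 lies near 0 and CRD1 lies at 0.66 in rpb1-TPY,FSP.

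Counted over the 6 genes, the number whose 3 libraries lay apart from the 3 WT libraries was 4 in spt6-R (BIO2, BIO3, BIO5 and VHT1 above), where 37.0% of all tested genes did not overlap. It was 3 in spt6-KK (BIO2, BIO3 and VHT1 above; background 36.3%) and 6 in spt6-R,KK (all above; 45.9%). In rpb1-TPY it was 1 (BPL1 below; 5.75%), in rpb1-FSP 4 (BIO2, BIO3 and VHT1 above, BPL1 below; 27.5%), and in rpb1-TPY,FSP 5 (BIO2, BIO3, BIO5 and VHT1 above, BPL1 below; 48.3%). The count became 5 in spt6-KK without its library 3 and 2 in rpb1-TPY without its library 1 or 2. It became 4 in spt6-KK without WT library 3. In spt6-R it became 6 without WT library 1 and 5 without its own library 2. In rpb1-FSP it became 5 without its library 2 or 3, and in rpb1-TPY,FSP 6 without its library 1. The genes were selected on these contrasts, so nothing is read from their counts beyond the values. The median log2 difference of the 6 was 0.63, 0.74 and 1.86 in spt6-R, spt6-KK and spt6-R,KK, and -0.02, 0.50 and 1.64 in rpb1-TPY, rpb1-FSP and rpb1-TPY,FSP. The median over all tested genes lay between -0.02 and 0.06.

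Scaled to gene length, the 6 genes differed widely in level within a strain. In spt6-R,KK the mean CPM values per kilobase were 144 ± 32.9 for BIO2, 132 ± 70.5 for VHT1, 65.9 ± 7.19 for BPL1, 15.6 ± 2.23 for BIO3, 9.26 ± 3.10 for BIO4 and 2.43 ± 0.79 for BIO5 (SD, n = 3 each). In WT they were 19.7 ± 2.85 for BIO2, 37.5 ± 2.63 for VHT1, 57.4 ± 3.64 for BPL1, 4.18 ± 0.52 for BIO3, 5.51 ± 0.79 for BIO4 and 0.620 ± 0.059 for BIO5. BPL1 was thus the highest of the 6 per length in WT, and BIO2 and VHT1 had means above it in spt6-R,KK.

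Likeness of pattern was measured as the root mean square difference in log2 CPM over the 7 strain means, each gene centred on its own mean. By that measure VHT1 was the gene nearest to BIO3 of all genes tested, at 0.13. The genes nearest to VHT1 were TKL2 at 0.08, ADR1 at 0.10 and MET10 at 0.12, and ADR1 was also next in line for BIO3 at 0.13. BIO2 had no other member near it, its distances to BIO3, VHT1 and BIO5 being 0.61, 0.65 and 0.71. The gene nearest to BIO2 was SER3, which encodes a phosphoglycerate dehydrogenase of serine synthesis, at 0.12. BPL1 was nearest to RIF2 at 0.16 and lay 0.44 or more from each of the other 5 genes. BIO4 was the nearest of these, and itself lay farther from BIO5 and BIO2, at 0.51 and 0.88.

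The rest of the pathway was described with 37 genes in 5 lists that hold none of the 6. The lists were chosen with earlier results of these data known. Their counts and p-values therefore describe these libraries and are not independent support. In spt6-R,KK 12 of the 37 rose and 6 fell, against 36.7% of all genes called in either direction, and in rpb1-TPY,FSP 14 rose and 6 fell, against 35.2%. In spt6-KK 2 rose and 4 fell, against 13.3%, and in spt6-R 1 rose and 1 fell, against 8.49%. None of the 37 was called in rpb1-TPY or rpb1-FSP by edgeR, and DESeq2 called 0 and 1. An unadjusted p under 0.05 was found for 0 and 7 of the 37, against 88 and 924 of all 5618 genes. The count of 6 in spt6-KK became 2, 1 and 3 without WT library 2, spt6-KK library 2 or spt6-KK library 3, and that of 2 in spt6-R became 0 or 1 without any 1 library.

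**Figure D4:**
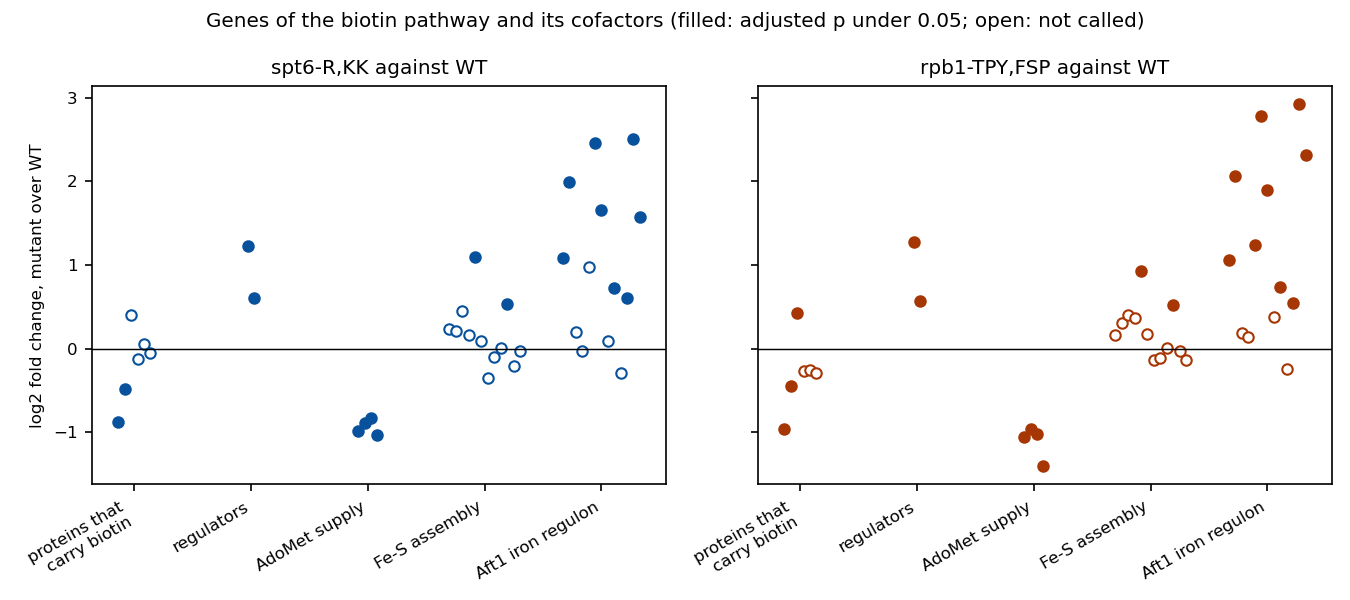
Log2 fold change, mutant over WT (vertical axis), of the 37 pathway genes in 5 lists (horizontal axis, 1 point a gene) in spt6-R,KK and rpb1-TPY,FSP. Filled points passed an adjusted p of 0.05 and open points did not. All 4 genes listed for S-adenosylmethionine supply lie below 0 in both strains.

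Proteins that carry biotin are the substrates of Bpl1. Of their 6 genes, none was called in a single mutant by edgeR or had an unadjusted p under 0.05 there, 2 fell in spt6-R,KK, against 36.7% of all genes called in either direction, and 2 fell and 1 rose in rpb1-TPY,FSP, against 35.2%. ACC1, which encodes the acetyl-CoA carboxylase that starts fatty acid synthesis, averaged 1589.96 ± 273 CPM in spt6-R,KK and 1492 ± 154 CPM in rpb1-TPY,FSP, against 2908 ± 154 CPM in WT (SD, n = 3 each). It fell by 0.87 in spt6-R,KK (adjusted p = 0.000561, edgeR) and by 0.96 in rpb1-TPY,FSP (adjusted p = 0.000228, edgeR). ARC1, which encodes a tRNA-binding cofactor of aminoacyl-tRNA synthetases that is also biotinylated, fell by 0.49 and 0.44 in the same strains. HFA1, PYC1 and PYC2, which encode mitochondrial acetyl-CoA carboxylase and the 2 pyruvate carboxylases, passed the test in no strain. The urea amidolyase gene DUR1,2 rose by 0.43 in rpb1-TPY,FSP (adjusted p = 0.0486, edgeR), a call lost without any 1 of the 6 libraries but WT library 3, with adjusted p of 0.0535 to 0.174.

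Both genes of the regulator list rose in both double mutants, where 19.3% of all genes rose in spt6-R,KK and 18.8% in rpb1-TPY,FSP. VHR1, the activator of VHT1 and BIO5, averaged 103 ± 35.9 CPM in spt6-R,KK and 107 ± 11.2 CPM in rpb1-TPY,FSP, against 44.2 ± 7.74 CPM in WT (SD, n = 3 each). Its log2 fold changes were 1.23 ± 0.20 and 1.28 ± 0.20 (adjusted p = 8.65e-05 and 5.57e-05, edgeR). Its relative VHR2 rose by 0.61 and 0.56. VHR2 also rose in spt6-KK, by 0.43, a call lost without WT library 2 or 3 or spt6-KK library 2 or 3 (adjusted p = 0.121 to 0.277, edgeR). The double mutants, in which VHR1 rose, had the highest mean levels of VHT1 and BIO5, but also of BIO2, BIO3 and BIO4. BIO2, BIO3 and BIO4 had no match to the pattern bound by Vhr1 within 500 bases of the start codon. In spt6-R, where BIO5 stood above WT, VHR1 differed by 0.21 ± 0.20 and was not called. The part of VHR1 in these levels was not tested.

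S-adenosylmethionine is a substrate of Bio3 and a reactant of Bio2, and the 4 genes listed for its supply all fell in both double mutants, where 17.5% of all genes fell in spt6-R,KK and 16.4% in rpb1-TPY,FSP. They are the synthetase genes SAM1 and SAM2, the transporter gene SAM3, and MMP1, which encodes a transporter of the related S-methylmethionine. SAM1 averaged 634 ± 164 CPM in spt6-R,KK and 599 ± 88.8 CPM in rpb1-TPY,FSP, against 1169 ± 139 CPM in WT. The log2 fold changes were -0.88 and -0.96 for SAM1, -0.83 and -1.01 for SAM2, -1.03 and -1.41 for SAM3, and -0.98 and -1.05 for MMP1, with adjusted p at most 0.0075 in edgeR. All 4 also fell in spt6-KK, by 0.34 to 0.85, where 390 of all 5618 genes fell. The SAM1 call in spt6-KK, a fall of 0.74, held in 13 of 13 alternative settings, and those of SAM2, SAM3 and MMP1 in 7, 9 and 11. Those 3 were lost, among others, without WT library 2 (adjusted p = 0.0664, 0.196 and 0.0682, edgeR) and without spt6-KK library 2 (adjusted p = 0.191, 0.197 and 0.0623, edgeR). BIO3 stood above WT in both double mutants and in spt6-KK, where these genes fell, and also in spt6-R and rpb1-FSP. In spt6-R 1 of the 4 was called, against 8.49% of all genes. This was MMP1, which fell by 0.64 (adjusted p = 0.0469, edgeR, and 0.065 to 0.293 without any 1 library but WT library 1). In rpb1-FSP edgeR called 0, with 2 at an unadjusted p under 0.05, against 924 of all 5618 genes.

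Bio2 carries iron-sulfur clusters, so 12 genes of mitochondrial iron-sulfur assembly were examined. In each double mutant 2 of the 12 rose and none fell. Of all genes, 19.3% rose and 17.5% fell in spt6-R,KK, and 18.8% rose and 16.4% fell in rpb1-TPY,FSP. ISU1, the scaffold protein gene, rose by 1.09 ± 0.21 in spt6-R,KK (adjusted p = 0.000526, edgeR) and by 0.93 ± 0.21 in rpb1-TPY,FSP (adjusted p = 0.00223, edgeR). ISA1 and ISA2, whose products act in cluster assembly for Bio2, differed by 0.45 and 0.16 in spt6-R,KK and by 0.41 and 0.36 in rpb1-TPY,FSP and were not called. The other gene that rose was NFU1, by 0.54 and 0.52, calls that were lost without WT library 1 (adjusted p = 0.0611 and 0.0723, edgeR) and, in rpb1-TPY,FSP, without its library 1 (adjusted p = 0.0599, edgeR). NFU1 also rose in spt6-KK, by 0.72, with an adjusted p of 0.0595 in edgeR without spt6-KK library 2.

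Of 13 genes of the Aft1 iron regulon, 8 rose in spt6-R,KK, where 19.3% of all genes rose, and 9 in rpb1-TPY,FSP, where 18.8% rose, and none fell. The siderophore transporter gene SIT1 averaged 125 ± 64.01 CPM in spt6-R,KK and 167 ± 59.7 CPM in rpb1-TPY,FSP, against 21.9 ± 3.08 CPM in WT (SD, n = 3 each). Its log2 fold changes were 2.51 ± 0.30 and 2.92 ± 0.30 (adjusted p = 2.76e-06 and 4.77e-07, edgeR). The cell wall mannoprotein gene FIT2 rose by 2.46 and 2.78, and the transporter gene ARN2 by 1.99 and 2.06. In spt6-R,KK the calls of TIS11 and HMX1 held in 9 and 11 of 13 alternative settings. In rpb1-TPY,FSP those of FIT1 and HMX1 held in 8 and 10. The other calls of this list in the double mutants held in 13 of 13. FET3 and FTR1, which encode the high-affinity iron uptake pair, differed by -0.02 and -0.29 in spt6-R,KK and by 0.15 and -0.24 in rpb1-TPY,FSP and were not called. In the single mutants 1 of the 13 was called, HMX1 in spt6-R, a call lost without any 1 of the 6 libraries (adjusted p = 0.0529 to 0.114, edgeR). In spt6-R, spt6-KK and rpb1-FSP, 2, 4 and 3 of the 13 had an unadjusted p under 0.05. Of all 5618 genes, 1413, 1688 and 924 did so in these strains, so nothing is read from the counts. FTR1, 1 of the 4 in spt6-KK, was lower there than in WT (log2 difference -0.39). Among them was ARN2, with log2 differences of 0.64 ± 0.24, 0.69 ± 0.24 and 0.76 ± 0.24 that did not pass the test (adjusted p = 0.0944, 0.0586 and 0.0889, edgeR).

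Genes beside the other members were examined in the same way. Over all 24 neighbours, 7 rose and 4 fell in spt6-R,KK, against 36.7% of all genes called, and 5 rose and 4 fell in rpb1-TPY,FSP, against 35.2%. In spt6-KK 2 rose, against 13.3%, in spt6-R 2 fell, against 8.49%, and in rpb1-FSP 1, CRD1, rose, against 2.35%. The counts in both double mutants, spt6-KK and spt6-R thus lay near the shares over all genes. The 11 calls in spt6-R,KK became 3, 5, 6 and 7 without WT library 2, WT library 3 or its own library 2 or 3, and the 9 in rpb1-TPY,FSP became 5 without WT library 3 or its own library 2.

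Some genes beside BIO2 were called in 3 of the 5 strains with high BIO2. Of the 6 nearest, 3 rose and 1 fell in spt6-R,KK, against 36.7% of all genes called. In spt6-KK 1 rose, against 13.3%, and in rpb1-TPY,FSP 1 rose, against 35.2%. In spt6-R,KK the isomaltase gene IMA1, the maltose regulator gene MAL13 and the maltose transporter gene MAL11 rose by 0.65, 0.81 and 0.99, and the chaperone gene ZUO1 fell by 0.32 (adjusted p = 0.0385, 0.0236, 0.0136 and 0.0142, edgeR). All 4 calls were lost without WT library 2 (adjusted p = 0.173, 0.0901, 0.0712 and 0.0537, edgeR). Those of IMA1 and ZUO1 were also lost without WT library 3 or spt6-R,KK library 2, that of IMA1 without spt6-R,KK library 3, and that of MAL13 without WT library 1 or spt6-R,KK library 1 (adjusted p = 0.0595 to 0.153, edgeR). IMA1 also rose by 0.81 in spt6-KK (adjusted p = 0.0286, edgeR, and 0.0727 to 0.18 without WT library 2 or 3 or spt6-KK library 2 or 3). MAL11 rose by 0.82 in rpb1-TPY,FSP (adjusted p = 0.039, edgeR, and 0.0553 to 0.16 without any 1 WT library or its own library 2 or 3). These maltose genes have close copies elsewhere in the genome, and how reads shared between copies were counted is not given in the sources used here. None of the 6 genes nearest to BIO2 was called by edgeR in spt6-R or rpb1-FSP, against 8.49% and 2.35% of all genes. Mean BIO2 levels there were 4.24 and 4.74 times that of WT. Of the 6, 3 and 1 had an unadjusted p under 0.05 in these strains, against 1413 and 924 of all 5618 genes.

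Of the 6 genes nearest to the BIO3, BIO4 and BIO5 cluster, 2 fell in spt6-R, against 8.49% of all genes called. In spt6-R,KK and rpb1-TPY,FSP 1 fell, against 36.7% and 35.2%. The ribosome biogenesis gene NOG2 fell in these 3 strains. Its log2 fold change was -0.57 in spt6-R (adjusted p = 0.00447, edgeR), -0.38 in spt6-R,KK (adjusted p = 0.0131) and -0.30 in rpb1-TPY,FSP (adjusted p = 0.045). The call in spt6-R was lost on mid-gene counts (-0.24, adjusted p = 0.12, edgeR) and that in spt6-R,KK without WT library 2 (adjusted p = 0.0627, edgeR). The call in rpb1-TPY,FSP was lost without WT library 2 or 3 or its own library 2 or 3 (adjusted p = 0.0939 to 0.156, edgeR). ESF2 fell by 0.83 in spt6-R (adjusted p = 0.0365, edgeR, and 0.1 to 0.151 without WT library 2 or 3 or spt6-R library 2 or 3).

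Of the 6 genes nearest to VHT1, 2 rose and 1 fell in spt6-R,KK, against 36.7% of all genes called. In rpb1-TPY,FSP 1 rose and 2 fell, against 35.2%. YGR066C and YGR067C rose and ADE6, a gene of purine synthesis, fell in spt6-R,KK, by 1.66, 1.05 and 0.58 (adjusted p = 0.0498, 0.0388 and 0.0188, edgeR). In rpb1-TPY,FSP YGR067C rose by 1.19, and SPT4, which encodes an elongation factor subunit, and ADE6 fell by 0.47 and 0.85 (adjusted p = 0.0196, 0.0334 and 0.00138, edgeR). The ADE6 call in rpb1-TPY,FSP held in 13 of 13 alternative settings. Each of the other 5 was lost without 1 or more single libraries, with adjusted p up to 0.206 in edgeR. In spt6-R,KK these were WT library 1 or 3 or its own library 2 or 3 for ADE6, any 1 library but WT library 1 or its own library 2 for YGR066C, and any but its own library 1 for YGR067C. In rpb1-TPY,FSP they were WT library 1 or its own library 3 for YGR067C, and any 1 library but WT library 1 or its own library 2 for SPT4. None of the 6 genes beside VHT1 was called by edgeR, or had an unadjusted p under 0.05, in a single mutant.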

How the data were processed

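Total RNA of 21 libraries was sequenced as stranded read pairs after depletion of ribosomal RNA, per the labels. Per the submitters' processing notes, the tools were cutadapt 1.16, STAR 2.6.1b, featureCounts 1.6.3 of the Subread package and DESeq2 1.22.2, with the R64 genome. The authors deposited raw counts of reads, over full genes (5823 genes) and, as sense reads, over the middle 70% of genes (5894 genes), per the file headers. The log2 fold changes in the authors' deposited table are quoted only where named.

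Levels are CPM on totals scaled by edgeR's TMM factors. Full-gene counts were fitted with edgeR 4.0.16 (quasi-likelihood, filterByExpr) in R 4.3.3, all 21 libraries in 1 model, with p-values adjusted by Benjamini-Hochberg over 5618 genes and called under 0.05. The 6 genes and all lists were chosen with earlier results of these data known. The 6 therefore carry no p-value, and the counts and p-values of the lists are descriptions of these libraries. Genes named are the 6, members of the lists, the 3 counted genes nearest on each side, and the 3 genes nearest in pattern. No 2 libraries of the same strain agreed within sampling noise. The p-values reflect the spread among these libraries alone, which may be technical. Coordinates and upstream sequences come from the R64 RefSeq genome and annotation. The fit was tested on simulated data. Alternatives were DESeq2 1.42.0 (size factors and Wald test), no filter, mid-gene counts, only the strains compared, a replicate block and each library left out. URA3, LEU2 and MF(ALPHA)1 were not used here.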

Additional observations from a re-analysis of the deposited data

Results flagged for a closer look

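BPL1 lay on opposite sides of WT in the 2 double mutants, but only narrowly above it in spt6-R,KK. Its log2 difference was 0.20 ± 0.13 (SE) in spt6-R,KK. All 3 libraries there were above WT, the lowest at 125 CPM against 124 CPM for the highest of WT. In rpb1-TPY,FSP the difference was -0.53 ± 0.13, with all 3 libraries below WT. The difference between these strains was not tested. The spt6-R,KK value is 0.11 when library 1 of each double mutant is left out.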

How the results depend on the processing

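Of the 6 genes' log2 differences from WT, 461 alternative values moved by less than the spread between replicates and 4 moved by more: BIO4 in rpb1-TPY without its library 2 (-0.94), BIO5 in rpb1-TPY on mid-gene counts (-0.35) and VHT1 in spt6-R,KK without its library 1, alone or with that of rpb1-TPY,FSP (both 1.29). With library 1 of each double mutant left out, a setting chosen after seeing the data, all genes called became 767 in spt6-R and 322 in rpb1-FSP, pathway genes 11 in spt6-KK and 2 in rpb1-FSP, and neighbours 4 in spt6-R. With only the strains compared, all genes called became 902 in spt6-R, 1 in rpb1-TPY and 437 in rpb1-FSP, pathway genes 7 in spt6-R, 11 in spt6-KK and 2 in rpb1-FSP, and neighbours 0 in spt6-KK and 7 in spt6-R,KK. Mid-gene counts gave 6 genes called in rpb1-TPY, 1 pathway gene in spt6-R, and 0, 1 and 0 neighbours in spt6-R, spt6-KK and rpb1-FSP. DESeq2's Wald test gave 229 genes, 1 pathway gene and 0 neighbours in rpb1-FSP. Size factors, and no filter, each gave 1 pathway gene in spt6-R and 0 neighbours in rpb1-FSP. The cause was not tested.

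Leaving out single libraries gave 110 to 489 genes called in spt6-R, 268 to 959 in spt6-KK, 1 to 3 in rpb1-TPY and 49 to 110 in rpb1-FSP. Pathway genes numbered 0 to 1 in spt6-R and 1 to 6 in spt6-KK, and neighbours 1 to 3 in spt6-R, 0 to 2 in spt6-KK, 3 to 9 in spt6-R,KK, 0 to 0 in rpb1-FSP and 5 to 9 in rpb1-TPY,FSP. Members apart from WT numbered 4 to 6 in spt6-R, 3 to 5 in spt6-KK and 1 to 2 in rpb1-TPY. They numbered 4 to 5 in rpb1-FSP and 5 to 6 in rpb1-TPY,FSP.

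Over all genes, libraries of a number did not deviate together in every pair: deviations from the strain means correlated between -0.47 and 0.27, and 5 of 18 mutant libraries were closest to the WT library of their number. Single genes could still follow the number: BIO2 was lowest in library 1 in 7 of 7 strains and VHT1 highest in 6 of 7. With a replicate block, genes called were 607, 918, 2218, 3, 177 and 2141 in spt6-R, spt6-KK, spt6-R,KK, rpb1-TPY, rpb1-FSP and rpb1-TPY,FSP, with 4 neighbours in spt6-R, 10 pathway genes in spt6-KK and 1 in rpb1-FSP. BIO5, at 5 to 38 counts, and BIO4, at 11 to 60, are limited by depth.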
